A study of Mus musculus with 6 samples.

Results

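The alarmin receptor genes examined here are Il1rl1, Il1rap, Il18r1, Il17rb, Crlf2 and Il7r, taken by name from the gene columns of the count table. All 6 were found among 18122 genes, and all 6 passed the filter on low counts that left 13691 genes for testing. RNA came from group 2 innate lymphoid cells (ILC2s), lymphocytes without antigen receptors that release type 2 cytokines, which were isolated from mouse lung by sorting and cultured afterwards. The libraries compared were 3 from ICOS KO mice, whose genotype label C.129S4-Icostm1Shr/J includes the name of a targeted Icos allele, and 3 from wild-type mice (WT; BALB/C BYJ). Icos encodes a co-stimulatory receptor of T cells and ILC2s. The labels give no age, sex, number of animals per library or culture stimulus, nor whether the 3 libraries of a genotype are separate mice. Duplicates are named in the study's design, but each genotype has 3 libraries here, none of which was left out. All p-values therefore reflect spread between libraries that may be technical. The strain label also differs between the genotypes: the prefix C.129S4 of the ICOS KO label denotes BALB/c with a 129S4 donor, and WT is BALB/C BYJ. Background, including donor-strain DNA, and allele cannot be told apart.

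Alarmins are cytokines that damaged or stimulated epithelium releases and that activate ILC2s. Interleukin-33 (IL-33) binds ST2, the product of Il1rl1, which then recruits the accessory chain encoded by Il1rap; interleukin-18 (IL-18) uses the chains of Il18r1 and Il18rap, and both pairs signal through the adaptor MyD88 to NF-κB. Interleukin-25 (IL-25) uses the chains of Il17rb and Il17ra and the adaptor Act1. Thymic stromal lymphopoietin (TSLP) binds the chain of Crlf2 together with that of Il7r, and interleukin-7 (IL-7) binds that of Il7r together with the common gamma chain, Il2rg; both act through JAK kinases and STAT5. ST2 is widely used as a marker of lung ILC2s.

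Il1rl1 and Il18r1 are neighbours on chromosome 1, and the start regions of both are shown because the values of these genes lie on opposite sides of WT. In GENCODE M21 (GRCm38) Il1rl1 spans 40429570 to 40465415 and Il18r1 spans 40465552 to 40500854, both on the plus strand, with 136 bases between them. RefSeq (GRCm38.p6) had 9 promoter windows for the 6 genes, each of 250 bases before a start and 50 after it. Stretches before the distal start of Il1rl1 (chr1:40429320-40429569), before its proximal start (chr1:40439379-40439626) and before the Il18r1 start furthest downstream (chr1:40465811-40465969, without annotated exons) read as follows, 5′ to 3′ on the plus strand. Capitals mark the GATA motif (AGATAA or its variant AGATAG, and likewise TGATAA or its variant TGATAG, on either strand) in the Il1rl1 stretches and the STAT motif (TTCNNNGAA on either strand) in the Il18r1 stretch.
Il1rl1 distal: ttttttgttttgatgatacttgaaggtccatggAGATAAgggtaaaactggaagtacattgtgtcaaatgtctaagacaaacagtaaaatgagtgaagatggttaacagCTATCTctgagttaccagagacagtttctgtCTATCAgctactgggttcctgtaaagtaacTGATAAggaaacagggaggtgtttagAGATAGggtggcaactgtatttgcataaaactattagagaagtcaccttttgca
Il1rl1 proximal: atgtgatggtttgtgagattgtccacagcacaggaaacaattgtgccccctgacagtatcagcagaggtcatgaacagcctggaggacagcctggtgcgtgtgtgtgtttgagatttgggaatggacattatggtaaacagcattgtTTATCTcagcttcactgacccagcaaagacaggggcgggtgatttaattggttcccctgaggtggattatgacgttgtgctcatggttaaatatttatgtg
Il18r1: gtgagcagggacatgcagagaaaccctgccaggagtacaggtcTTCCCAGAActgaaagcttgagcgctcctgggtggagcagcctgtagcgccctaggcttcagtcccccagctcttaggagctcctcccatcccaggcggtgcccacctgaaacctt
The distal Il1rl1 window held 5 GATA matches, a number reached by 0.055% of 32841 windows of all genes, and the proximal window held 1, as at least 29.8% of windows do. No GATA match lay in the windows of the other 5 genes. The proximal Il1rl1 window also held 1 match each to the ROR motif (AGGTCA; 16.3% of windows hold one) and the FOXO motif (TGTTTAC; 3.65%), which the other windows lacked. The STAT motif was found 2 times in the window of that Il18r1 start (0.457% of windows have as many) and 1 time in that of Il7r (8.3% hold one). Only 1 of the 2 matches lies in the printed Il18r1 stretch, and the windows of the other Il18r1 starts held none. None of these matches overlapped a match of another motif. The counts are for whole genes and do not show which start was used, nor do they separate the 5 annotated protein-coding transcripts of Il1rl1, which encode membrane-bound and soluble forms of ST2.

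Library totals ranged from 13738062 to 15543034 estimated counts in ICOS KO and from 14976130 to 18736474 in WT. A floor of 3 counts was 0.157 to 0.225 CPM (the count scaled to a common library size with TMM factors) in a single library and covers counting error only. Icos stood at 140, 170 and 161 CPM in ICOS KO libraries, against 434, 462 and 501 CPM in WT libraries, so each library matched its label. ICOS KO replicate 2 stood apart, with the highest score on the first principal component (54.71, against 9.33 and 27.51 in the other ICOS KO libraries and -35.02 to -22.28 in WT). It also had the highest mitochondrial share (0.616% of counts, against 0.329% and 0.492% in the other ICOS KO libraries and 0.263% to 0.422% in WT). The 14 ILC2 marker genes summed to 12360 to 13080 CPM in ICOS KO and 11640 to 12840 CPM in WT, led by Il5, the eosinophil growth factor (6040 CPM in ICOS KO, 6451 CPM in WT). Of these 14 markers 5 rose and 1 fell at an edgeR adjusted p of 0.05 (1.29% and 2.01% of all tested genes). The rises were those of Il1rl1, the inhibitory receptor gene Klrg1 (557 CPM in ICOS KO, 240 CPM in WT), the growth factor gene Areg (257 CPM in ICOS KO, 96.6 CPM in WT), Arg1 (627 CPM in ICOS KO, 380 CPM in WT) and Cysltr1 (293 CPM in ICOS KO, 185 CPM in WT), and the fall was that of Rora. Their part in the receptor values was not tested.

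Of the 6 receptor genes, Il1rl1 rose in ICOS KO and none fell at an edgeR quasi-likelihood adjusted p of 0.05, where 3.29% of all tested genes passed (1.29% higher and 2.01% lower). Values of ICOS KO and WT did not overlap for 3 of the 6, namely Il1rl1, Il17rb and Il18r1, a property of 24.4% of tested genes (11.9% with ICOS KO higher and 12.5% with ICOS KO lower). These 3 were also those with an unadjusted p under 0.05, against 19.9% of tested genes. DESeq2 called 2 of the 6, Il1rl1 and Il17rb, both higher, and 6.79% of all tested genes (3.03% higher and 3.75% lower). The median log2 fold change of the 6 was 0.17, against 0.00 over all tested genes. Of the 451 genes called in all, 39% were higher in ICOS KO, a share of 28.2% when libraries were scaled by their totals only and 52.5% when trends with transcript length and GC content were removed.

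**Figure D1:**
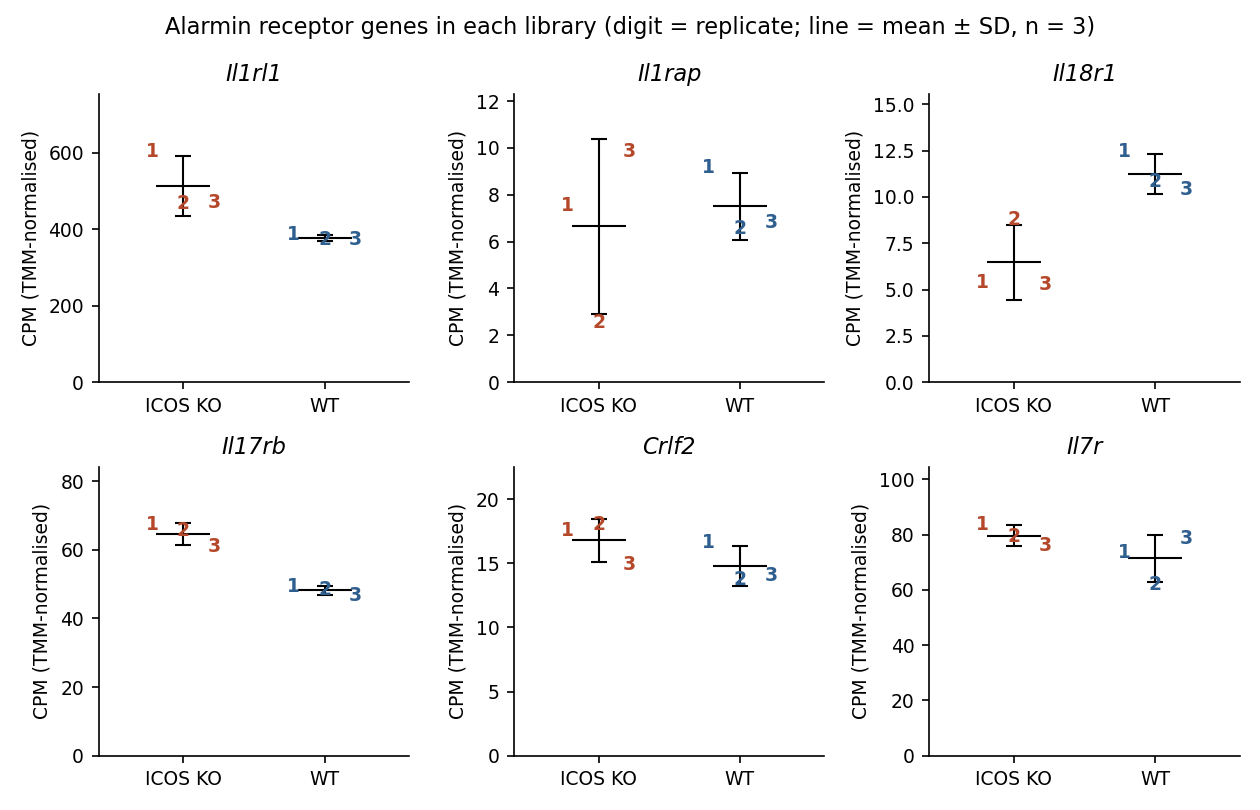
CPM (y axis, from 0) of each receptor gene in the ICOS KO and WT libraries; digits are replicates, the horizontal line is the mean and the bars are ± SD (n = 3 each). The 3 ICOS KO libraries lie above all WT libraries for Il1rl1 and Il17rb and below them for Il18r1, while Il1rap is lowest in ICOS KO replicate 2.

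Il1rl1, the IL-33 receptor chain, was the most abundant of the 6. It stood at 604, 467 and 469 CPM in ICOS KO libraries, against 387, 372 and 372 CPM in WT libraries. All ICOS KO libraries were above all WT libraries, with replicate 1 the highest, and the WT libraries lay within a narrow range. The means were 513 ± 78.2 CPM in ICOS KO and 377 ± 8.70 CPM in WT (SD, n = 3 each), a 1.36-fold rise with a log2 fold change of 0.45 ± 0.11 (SE; 95% interval 0.21 to 0.68; edgeR adjusted p = 0.0495). The value lay just inside the threshold. Leaving out ICOS KO replicate 3 or any of the WT replicates ended the call (edgeR adjusted p up to 0.214), as did scaling by totals only (0.101) and testing without the filter (0.0625). Without ICOS KO replicate 1 the log2 fold change was 0.32.

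Il1rap encodes the accessory chain that ST2 needs to signal; it maps to chromosome 16, 26581704 to 26730117, and overlaps the predicted gene Gm20319 on the other strand. It stood at 7.55, 2.55 and 9.86 CPM in ICOS KO libraries, against 9.16, 6.56 and 6.81 CPM in WT libraries. The genotypes overlapped, and ICOS KO replicate 2 was below every other library. That library held 34 counts of Il1rap, whose exact 95% Poisson interval of 1.77 to 3.57 CPM left out the values of the other 5 libraries. The interval covers counting error only. The means were 6.65 ± 3.73 CPM in ICOS KO and 7.51 ± 1.44 CPM in WT (SD, n = 3 each), and the log2 fold change was -0.17 ± 0.39 (95% interval -1.03 to 0.68; edgeR adjusted p = 0.839). Without ICOS KO replicate 2 it was 0.21 (edgeR adjusted p = 0.756).

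Il17rb, which encodes the chain that gives the IL-25 receptor its specificity, showed a difference close in size to that of Il1rl1 without passing the test. It stood at 67.3, 65.5 and 60.9 CPM in ICOS KO libraries, against 49.2, 48.4 and 46.7 CPM in WT libraries. The libraries of each genotype lay close together and the genotypes did not overlap. The means were 64.6 ± 3.28 CPM in ICOS KO and 48.1 ± 1.26 CPM in WT (SD, n = 3 each), 1.34-fold, with a log2 fold change of 0.42 ± 0.11 (95% interval 0.19 to 0.66; edgeR adjusted p = 0.0607). Among 16 alternatives, 6 gave a call, at adjusted p of at least 0.0108. The gene maps to chromosome 14, 29996135 to 30008896, and overlaps Actr8 on the other strand; without a stated strand setting reads of the overlap cannot be assigned with certainty.

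Il18r1, the ligand-binding chain of the IL-18 receptor, was lower in every ICOS KO library, without passing the test. It stood at 5.35, 8.78 and 5.26 CPM in ICOS KO libraries, against 12.5, 10.8 and 10.4 CPM in WT libraries. The ICOS KO library nearest to WT was replicate 2, the one that stood apart overall. The means were 6.47 ± 2.01 CPM in ICOS KO and 11.2 ± 1.09 CPM in WT (SD, n = 3 each), and the log2 fold change was -0.80 ± 0.25 (95% interval -1.34 to -0.25; edgeR adjusted p = 0.113). Without ICOS KO replicate 2 it was -1.08 (edgeR adjusted p = 0.0374), past the threshold, as it was with voom and sample quality weights (-0.93, limma adjusted p = 0.0371).

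Crlf2 and Il7r, the chains of the TSLP receptor, did not pass the test and their genotypes overlapped. Crlf2 (chromosome 5, 109554709 to 109558993) stood at 17.5, 18.0 and 14.9 CPM in ICOS KO libraries, against 16.6, 13.8 and 14.1 CPM in WT libraries. Its log2 fold change was 0.18 ± 0.17 (95% interval -0.18 to 0.55; edgeR adjusted p = 0.568), an interval of 0.881-fold to 1.46-fold. Il7r, which IL-7 also uses (chromosome 15, 9505788 to 9530176), stood at 83.6, 79.4 and 75.9 CPM in ICOS KO libraries, against 73.6, 62.1 and 78.6 CPM in WT libraries. WT replicate 3 lay among the ICOS KO libraries, and the log2 fold change was 0.16 ± 0.12 (95% interval -0.10 to 0.41; edgeR adjusted p = 0.47), or 0.935-fold to 1.33-fold. No alternative called either gene.

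**Figure D2:**
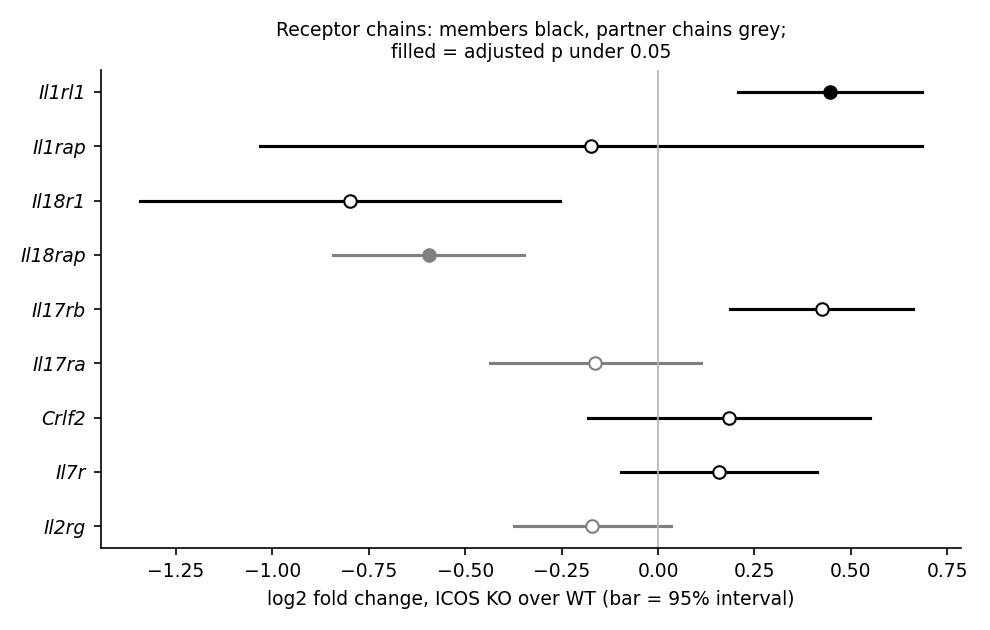
Log2 fold change of ICOS KO over WT (x axis) for the 6 receptor genes (black) and their partner chains (grey), with 95% intervals as bars; filled points passed an adjusted p of 0.05. Il1rl1 at 0.45 and Il18rap at -0.59 are the filled points, and the interval of Il1rap is the widest among the 9 genes.

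Levels were compared between genes as CPM per kilobase of annotated exon. Il1rl1 led in both genotypes, at 74.5 CPM per kb in ICOS KO and 54.7 CPM per kb in WT, which placed it in the top 7.22% and 9.09% of 13388 genes with a known length. In ICOS KO it was followed by Il17rb (17.4 CPM per kb) and Il7r (17.1 CPM per kb), whose libraries overlapped, and in WT by Il7r (15.3 CPM per kb) and Il17rb (13.0 CPM per kb), whose libraries lay next to each other without overlap. Crlf2 was next, at 11.3 CPM per kb in ICOS KO and 9.91 CPM per kb in WT. Il18r1 (1.34 CPM per kb in ICOS KO, 2.33 in WT) and Il1rap (0.586 CPM per kb in ICOS KO, 0.661 in WT) came last in this order in both genotypes. Every other pair of neighbours in the order was separated in both genotypes. Annotated exons of all transcripts were summed for the length (11.36 kb for Il1rap), and which of them these cells use was not tested.

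The partner chains of the receptors gave a call for Il18rap and none for Il17ra or Il2rg. Il18rap, the signalling partner of the IL-18 receptor, fell in ICOS KO to 39.0, 37.2 and 39.8 CPM, against 61.6, 58.0 and 55.5 CPM in WT libraries. Its log2 fold change was -0.59 ± 0.11 (edgeR adjusted p = 0.0142), with no overlap between genotypes; omitting ICOS KO replicate 2 or 3 or WT replicate 1 or 2 ended the call (edgeR adjusted p up to 0.0975). Il17ra, which the IL-25 receptor shares with other IL-17 family receptors, averaged 89.4 ± 11.1 CPM in ICOS KO and 100 ± 11.4 CPM in WT (SD, n = 3 each; edgeR adjusted p = 0.488). Il2rg averaged 775 ± 85.8 CPM in ICOS KO and 872 ± 23.7 CPM in WT (SD, n = 3 each; edgeR adjusted p = 0.328). Of 9 tested genes in the list of partner chains, decoys and neighbouring receptors, 2 fell and none rose (2.01% and 1.29% of all tested genes), with a median log2 fold change of -0.17. The second fall was that of Il1rn, the interleukin-1 receptor antagonist, at 10.1 ± 3.85 CPM in ICOS KO and 23.0 ± 5.21 CPM in WT (SD, n = 3 each; edgeR adjusted p = 0.0359), a call lost without ICOS KO replicate 2 or 3 or any WT replicate (edgeR adjusted p up to 0.154). Sigirr, which restrains ST2 signalling, stood at 209 ± 7.77 CPM in ICOS KO and 205 ± 6.87 CPM in WT (edgeR adjusted p = 0.874). Il18bp, the soluble inhibitor of IL-18, was low, at 0.667 to 1.81 CPM in ICOS KO (9 to 28 counts) and 2.20 to 2.52 CPM in WT (37 to 48 counts). Its genotypes did not overlap, as for 24.4% of tested genes, and it was not called (edgeR adjusted p = 0.317).

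On chromosome 1 the receptor genes Il1r2, Il1r1, Il1rl2, Il1rl1, Il18r1 and Il18rap follow each other on the plus strand, and of these Il1rl1 rose and Il18rap fell. Il1rl1 ends 136 bases before Il18r1, and Il18rap starts 14507 bases after Il18r1. The ratio of Il1rl1 to Il18r1 counts within a library, chosen after the values were seen and not tested, was 113, 53.2 and 89.1 in ICOS KO libraries, against 31.1, 34.4 and 35.7 in WT libraries. Il1r2, the decoy receptor of interleukin-1 at the other end, averaged 681 ± 51.5 CPM in ICOS KO and 593 ± 56.8 CPM in WT (SD, n = 3 each; edgeR adjusted p = 0.279). Il1rl1 lies 20.5 Mb from Icos on the same chromosome, and the extent of donor-strain DNA around the Icos allele was not analysed here.

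**Figure D3:**
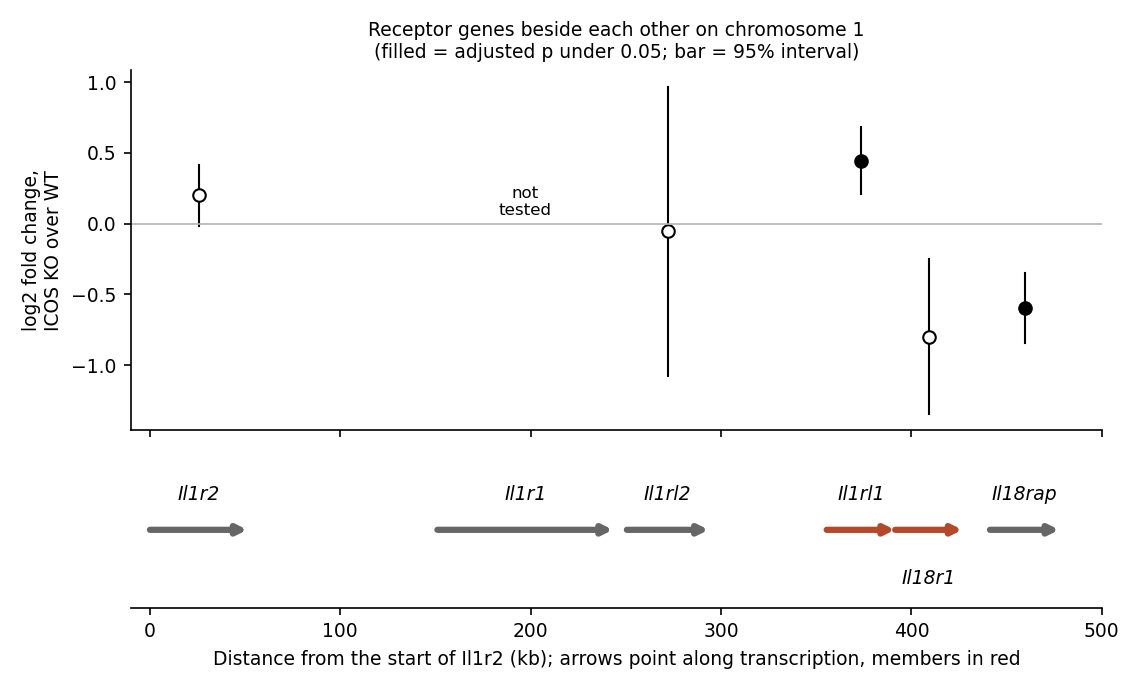
The upper panel gives the log2 fold change of ICOS KO over WT (y axis; bars, 95% intervals) for 6 receptor genes at their distance in kb from the start of Il1r2 (x axis), and the lower panel shows the genes to scale as arrows. The value is 0.45 at Il1rl1, -0.80 at Il18r1 and -0.59 at Il18rap; Il1r1 was too low to test.

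Ratios of the chains of 1 receptor within a library do not depend on scaling between libraries. Il17rb over Il17ra was 0.665, 0.744 and 0.771 in ICOS KO libraries, against 0.449, 0.469 and 0.534 in WT libraries, with no overlap. The difference of mean log2 ratios was 0.59, with an exact two-sided permutation p of 0.1, the smallest that 3 against 3 libraries allow (0.5 adjusted over 5 ratios). Il1rl1 over Il1rap was 80.0, 183 and 47.6 in ICOS KO libraries, against 42.2, 56.7 and 54.6 in WT libraries. ICOS KO replicate 2 was the highest there, ICOS KO replicate 3 lay among the WT libraries, and the exact permutation p was 0.3. Il18r1 over Il18rap differed by -0.24 (log2; exact permutation p = 0.4), Crlf2 over Il7r by 0.02 (exact permutation p = 0.8) and Il7r over Il2rg by 0.34 (exact permutation p = 0.2). In these ratios of counts the lengths of the genes are not taken out, so only the genotypes can be compared.

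Transcripts of the ligands were scarce. Il33 reached at most 0.788 CPM in any library, Il18 at most 0.458 CPM and Il7 at most 0.393 CPM, below the filter. Il25 and Tslp had no column in the count table. The ligand list had 2 tested genes, the interleukin-1 genes Il1a and Il1b, and neither was called by edgeR, DESeq2 or voom or had an unadjusted p under 0.05 (median log2 fold change 0.65).

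Among 22 genes of the MyD88, Act1 and TRAF signal chain none was called by edgeR, DESeq2 or unweighted voom. With quality-weighted voom 1 was lower, as was 1 with a replicate block. Of the 22 genes 3 had an unadjusted edgeR p under 0.05, against 19.9% of all tested genes. The median log2 fold change was -0.19, with 18 of 22 negative (6904 of 13691 among all tested genes). It was -0.05 with 16 negative once the length and GC trend was removed. Myd88 itself averaged 136 ± 9.63 CPM in ICOS KO and 155 ± 3.49 CPM in WT (SD, n = 3 each; edgeR adjusted p = 0.306). Traf3ip2, which encodes Act1, stood at 27.5 ± 4.35 CPM in ICOS KO and 24.8 ± 2.20 CPM in WT (edgeR adjusted p = 0.631). Across 9 JAK and STAT genes none was called by edgeR, DESeq2 or unweighted voom. Of these 3 had an unadjusted edgeR p under 0.05, against 19.9% of all tested genes. Their median log2 fold change was -0.24, with 7 of 9 negative, and -0.11 with the trend removed. Stat5a (30.5 ± 3.12 CPM in ICOS KO, 33.1 ± 3.86 CPM in WT; edgeR adjusted p = 0.675) and Stat5b (62.8 ± 9.76 CPM in ICOS KO, 85.3 ± 11.8 CPM in WT; edgeR adjusted p = 0.12), which act downstream of TSLP and IL-7, were not called. Stat5b passed the threshold as lower in ICOS KO with quality-weighted voom, with a replicate block and without ICOS KO replicate 1 (adjusted p of 0.0321 to 0.0403). The kinase genes Jak1, Jak2 and Jak3 had log2 fold changes of -0.27, -0.39 and -0.24 (edgeR adjusted p of at least 0.19).

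Feedback and NF-κB target genes moved in both directions, with 2 higher and 2 lower of 18 tested (1.29% and 2.01% of all tested genes), or 3 higher and 4 lower with DESeq2 (3.03% and 3.75%), and a median log2 fold change of -0.06. Nfkb2, the precursor of the NF-κB subunit p52, fell in ICOS KO to 54.0 ± 7.82 CPM, against 89.0 ± 13.1 CPM in WT (SD, n = 3 each; edgeR adjusted p = 0.0169). Tnfaip3, which encodes A20, a brake on NF-κB, fell to 10.6 ± 1.68 CPM in ICOS KO, against 18.2 ± 2.13 CPM in WT (edgeR adjusted p = 0.0461). Zfp36, which encodes tristetraprolin, a factor that destabilises cytokine mRNA, rose to 75.0 ± 3.33 CPM in ICOS KO, against 49.3 ± 2.83 CPM in WT (edgeR adjusted p = 0.0102). Bcl3, an atypical member of the IκB family of NF-κB regulators, rose to 280 ± 10.3 CPM in ICOS KO, against 210 ± 6.88 CPM in WT (edgeR adjusted p = 0.0259). The call of Zfp36 was lost without WT replicate 1 (edgeR adjusted p = 0.0721). That of Nfkb2 ended on omitting ICOS KO replicate 2 or 3 or WT replicate 1 or 2 (up to 0.102), that of Bcl3 on omitting ICOS KO replicate 3 or any WT replicate, or on scaling by totals only (up to 0.162). The call of Tnfaip3 was lost without any WT replicate or ICOS KO replicate 2 or 3, with upper-quartile factors, voom or no filter, and with the length and GC trend removed (up to 0.211).

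Of 11 STAT5 target genes 2 rose and none fell (1.29% and 2.01% of all tested genes), with a median log2 fold change of 0.14. Socs3, a feedback inhibitor of JAK signalling, rose to 387 ± 42.9 CPM in ICOS KO, against 250 ± 22.1 CPM in WT (SD, n = 3 each; edgeR adjusted p = 0.0084). The kinase gene Pim2 rose to 246 ± 10.9 CPM in ICOS KO, against 178 ± 12.2 CPM in WT (edgeR adjusted p = 0.0208). Cish, a classical STAT5 target, was not called, at 439 ± 12.1 CPM in ICOS KO and 484 ± 13.9 CPM in WT (edgeR adjusted p = 0.35). Omitting ICOS KO replicate 3 or WT replicate 1 ended the call of Socs3 (edgeR adjusted p up to 0.0543) and the call of Pim2 ended on omitting ICOS KO replicate 3 or any WT replicate, or on scaling by totals only (up to 0.12). Of 11 genes of transcription factors known to act on these receptor genes or on ILC2 development, 1 fell and none rose (2.01% and 1.29% of all tested genes), with a median of -0.20. This was Rora, at 152 ± 5.99 CPM in ICOS KO and 210 ± 7.74 CPM in WT (SD, n = 3 each; edgeR adjusted p = 0.0155), a call that ended on omitting ICOS KO replicate 3 or WT replicate 1 or 2 (up to 0.104). Gata3, the master regulator of type 2 lymphocytes, stood at 752 ± 53.0 CPM in ICOS KO and 866 ± 50.9 CPM in WT (edgeR adjusted p = 0.227).

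**Figure D4:**
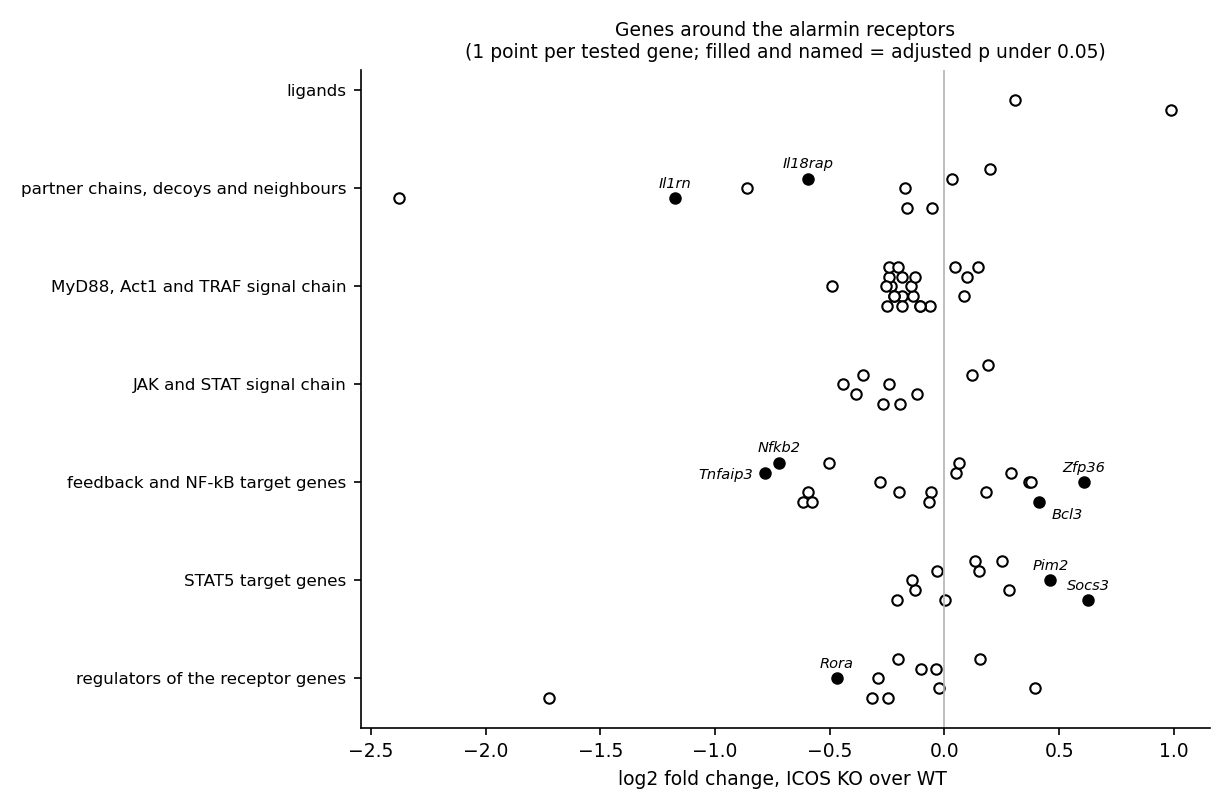
Log2 fold change of ICOS KO over WT (x axis) for each tested gene of 7 lists around the alarmin receptors (rows; points are spread vertically for legibility). Filled, named points passed an adjusted p of 0.05: 4 genes were higher and 5 lower among 82 tested, where 3.29% of all tested genes were called.

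Markers of other cell types were detected, with list sums from 20.2 to 469 CPM in a library, and some moved with genotype. Fewer cells of a type and less RNA per cell cannot be told apart in such libraries. The 13 mast cell and basophil genes, from cells that also express Il1rl1, summed to 60.8 to 72.2 CPM in ICOS KO and 356 to 410 CPM in WT. By edgeR 7 of 9 tested genes of this list were lower and none higher (2.01% and 1.29% of all tested genes). Some of the 7, such as Fcer1a (0 to 0.225 CPM in ICOS KO, 1.63 to 1.78 CPM in WT) and Gata2 (0 to 0.826 CPM in ICOS KO, 3.47 to 5.36 CPM in WT), passed the filter through the WT libraries. The direction of such calls carries no weight. The most abundant of these 13 genes were the tryptase gene Tpsab1 (29.7 CPM in ICOS KO, 249 CPM in WT) and Kit (20.2 CPM in each). The 7 genes of NK cells and other ILCs, which include cells that carry the IL-18 receptor, summed to 46.6 to 64.6 CPM in ICOS KO and 25.8 to 38.1 CPM in WT, led by Il22 (46.7 CPM in ICOS KO, 23.9 CPM in WT) and Prf1 (5.43 CPM in ICOS KO, 2.91 CPM in WT), neither of which was called (edgeR adjusted p of 0.0535 and 0.219). Of 5 tested genes of this list 2 fell, Ncr1 and Tbx21, and none rose (2.01% and 1.29% of all tested genes). Ncr1 stood at 0, 0 and 0.0741 CPM in ICOS KO and 1.21 to 1.64 CPM in WT, and Tbx21 at 0 to 0.387 CPM in ICOS KO and 1.11 to 2.83 CPM in WT. Both passed the filter on low counts only through the WT libraries, so the direction of their calls carries no weight. The 10 T cell genes summed to 366 to 469 CPM in ICOS KO and 245 to 300 CPM in WT. Of 6 tested genes 2 were called higher and 1 lower (1.29% and 2.01% of all tested genes). The higher ones led the sum, namely Trbc2 (230 CPM in ICOS KO, 152 CPM in WT) and Trbc1 (123 CPM in ICOS KO, 58.9 CPM in WT), and the lower one was Cd3e (2.30 CPM in ICOS KO, 8.86 CPM in WT). Cd8a and Cd8b1 were at 0 in all ICOS KO libraries and each at 0 in 1 WT library. Cd3g (63.2 CPM in ICOS KO, 48.1 CPM in WT), Cd3d (0.975 CPM in ICOS KO, 1.16 CPM in WT) and Trac (0.578 CPM in ICOS KO, 0.987 CPM in WT) were not called. Cd4 and Cd5 reached at most 0.525 and 0.840 CPM in a library, both in WT, and were not tested. The sum thus rested on Trbc2, Trbc1 and Cd3g. Sums were 29.9 to 46.6 CPM in ICOS KO and 25.8 to 27.9 CPM in WT for 6 B cell genes, and 120 to 154 CPM in ICOS KO and 156 to 221 CPM in WT for 9 myeloid and dendritic cell genes. They were 21.1 to 26.3 CPM in ICOS KO and 20.2 to 94.3 CPM in WT for 10 eosinophil and neutrophil genes, and 144 to 276 CPM in ICOS KO and 146 to 256 CPM in WT for 7 epithelial and stromal genes. In the B cell list 1 of 5 tested genes was called higher, Cd79b (31.9 CPM in ICOS KO, 19.1 CPM in WT). The myeloid list had 1 of 8 lower, Csf1r (3.86 CPM in ICOS KO, 11.2 CPM in WT). The epithelial list had 1 of 6 higher, Epcam (75.9 CPM in ICOS KO, 46.4 CPM in WT). None of 7 tested eosinophil and neutrophil genes was called, where 1.29% of all tested genes were higher and 2.01% lower. The part of these cell types in the receptor values was not tested.

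The genes most alike each receptor gene over the 6 libraries were found by Pearson r of log2 CPM among 9121 genes; with so many genes and 6 libraries that share the genotype difference, high values are to be found for any gene. For Il1rl1 they were Sytl2 (r = 0.985), Lef1 (0.983) and Slc7a3 (0.983), and for Il17rb H13 (0.993), Dhrs3 (0.988) and Ormdl3 (0.987). Ormdl3, an endoplasmic reticulum protein that restrains sphingolipid synthesis, was itself called higher in ICOS KO (log2 fold change 0.41, edgeR adjusted p = 0.0374). Those of Il18r1 were Thtpa (0.993), Mga (0.992) and Adssl1 (0.979), and those of Il1rap were Rnf25 (0.986), Tigar (0.985) and Galnt12 (0.983). Crlf2 was followed most closely by Vipas39 (0.975), Dmtf1 (0.968) and Gtf2h4 (0.964), and Il7r by Ero1lb (0.984), Plpp6 (0.974) and Ier3 (0.953).

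**Figure D5:**
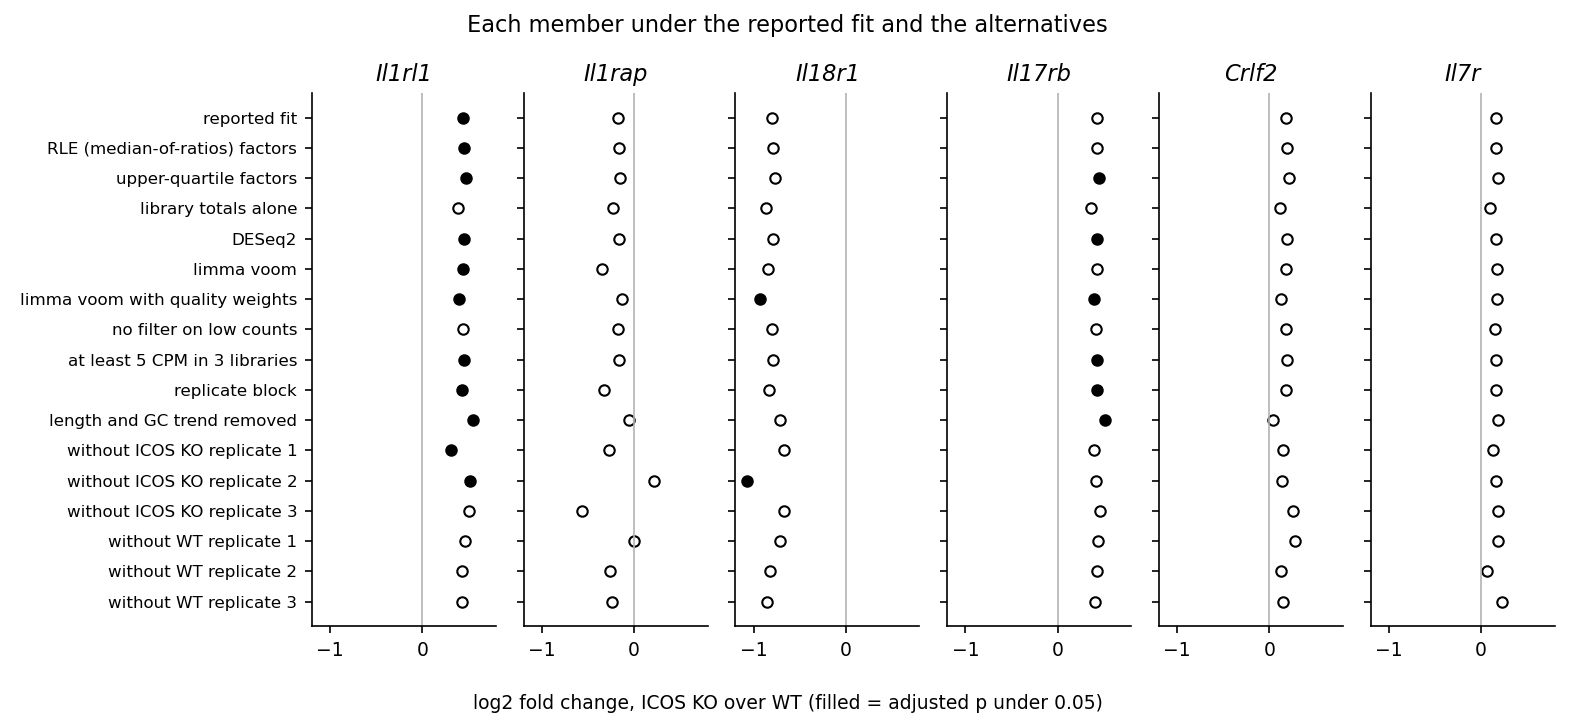
Log2 fold change of ICOS KO over WT (x axis) of each receptor gene under the reported fit and 16 alternatives (rows); filled points passed an adjusted p of 0.05. Il1rl1 and Il17rb stay above 0 and Il18r1 below 0 in every row, with filled points in 11 of 17 rows for Il1rl1, 6 for Il17rb and 2 for Il18r1, while Il1rap lies on both sides of 0.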

How the data were processed

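RNA of 6 libraries of sorted and cultured mouse lung ILC2s, 3 ICOS KO and 3 WT, was reverse-transcribed with the SMARTer Ultra Low Input kit, per the labels' protocols. An RNA input of 10 pg is recorded for every library. What the authors deposited is 1 gene table of estimated counts, 39.4% of them not whole. Partek 10.0, STAR 2.7.8, DESeq2 and genome build mm10 are named in the submitters' processing notes; not given in the sources used here are the annotation, counting method and strandedness. Estimated counts can divide reads between overlapping or similar genes, and intervals cover counting error only, since the labels name no molecular identifiers.

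Libraries were matched to genotypes by library name. Counts were rounded, filtered with filterByExpr (13691 genes left), scaled by TMM and compared in edgeR 4.0.16 (R 4.3.3) by its quasi-likelihood F test, without covariates, with Benjamini-Hochberg adjustment over all tested genes and a threshold of 0.05. SE are those implied by the F statistic, and 95% intervals use its t distribution. The lowest chi-square per degree of freedom between any pair of libraries was 8.36, so none was a copy of another.

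The 6 genes and the gene lists were chosen with earlier results of these data known; 1 listed gene is not reported here and was left out of the lists' counts. Named beside them were called genes of the pathway lists, direct partners of the receptors and the 3 genes most alike each receptor gene (mean of at least 5 CPM, prior count 2). For other cell types, list sums and leading genes were named. Il1r2, Cish, Gata3, Klrg1, Areg, Arg1, Cysltr1, Ncr1, Tbx21, Cd3e, Cd8a, Cd8b1 and Csf1r were chosen after their values were seen. So were Fcer1a, Gata2, Cd3g, Cd3d, Trac, Cd4, Cd5, Epx, Prg2, Csf3r and Ly6g. Within-library ratios (0.5 added to each count before the log) were compared by exact permutation of the genotype labels, which has 20 arrangements. Positions and exon lengths come from GENCODE M21 (GRCm38) by symbol, matched for 17691 of 18122 genes, and promoter windows from RefSeq, matched for all 6 genes. Alternatives were 3 other scalings, DESeq2 1.42.0, limma 3.58.1 voom with and without quality weights, no filter, a minimum of 5 CPM in 3 libraries, a replicate block, removal of length and GC trends, and each library left out.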

Additional observations from a re-analysis of the deposited data

How the results depend on the processing

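The number of genes called was 451 and became 929 with DESeq2, 906 with weighted voom and 784 with the replicate number as a block; it ranged from 193 to 1090 when a library was left out (1090 without ICOS KO replicate 1, 216 without ICOS KO replicate 3, and 193 and 194 without WT replicates 1 and 2). The cause was not tested. The replicate numbers are shared by the genotypes, but the labels do not state that they pair libraries, so the reported fit left them out. Same-numbered libraries deviated together only weakly (r of 0.0643 to 0.0868 across genes), although all 6 libraries correlated best with their own number. Whether they are pairs was not settled, and the call of Il17rb depended on it (edgeR adjusted p = 0.0607 in the reported fit, 0.0436 with the block).

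The log2 fold change of Il1rl1 was no longer past the threshold at 0.38 with library totals alone and 0.44 with no filter on low counts, and ranged from 0.32 to 0.51 when a library was left out. That of Il17rb passed it at 0.45 with upper-quartile factors, 0.43 with DESeq2, 0.39 with weighted voom, 0.43 with at least 5 CPM in 3 libraries, 0.42 with the replicate block and 0.51 with the length and GC trend removed; it ranged from 0.40 to 0.46 when a library was left out, with no call. That of Il18r1 passed it at -0.93 with weighted voom and ranged from -1.08 to -0.68 when a library was left out. Il1rap ranged from -0.57 to 0.21, its sign turning without ICOS KO replicate 2. Crlf2 (0.04 to 0.27) and Il7r (0.07 to 0.23) kept direction and side of the threshold under all 16 alternatives. When a library was left out, the log2 differences of the within-library ratios ranged from -0.09 to 0.08 for Crlf2 over Il7r, 0.53 to 0.66 for Il17rb over Il17ra, -0.51 to -0.09 for Il18r1 over Il18rap, 0.28 to 1.25 for Il1rl1 over Il1rap, 0.26 to 0.45 for Il7r over Il2rg. Of 20 further pathway genes, 7 kept direction and call under all alternatives tried; the sign turned, without a call, for Il17ra (0.0091) and Stat5a (0.040) with the trend removed and for Sigirr (-0.033) with library totals alone. Il1rap and Il18r1 rest on as few as 34 and 71 counts in a library, and Il1rap in ICOS KO replicate 2 lay further from the other libraries than its counting interval.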
